A study of Mus musculus with 8 samples.

Results

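Transcripts of 10 core basement membrane genes were followed in mouse kidney tubule cells depleted of smgGDS: the collagen IV chains Col4a1 and Col4a2, the laminin chains Lama1, Lama5, Lamb1, Lamb2 and Lamc1, the nidogens Nid1 and Nid2, and perlecan, Hspg2. The members were taken by gene symbol, and all 10 were found among the 21879 genes of the deposited count table. Of these, 9 passed the filter on low counts and were among the 11576 genes tested, while Lama1 had no count in any library. The libraries came from TCMK-1, a transformed mouse kidney tubular epithelial line, and held poly(A)-selected RNA. The knockdown group (4 libraries) carried an shRNA against smgGDS, the product of Rap1gds1, which promotes nucleotide exchange and membrane traffic of several small GTPases. The control group (4 libraries) carried a control shRNA. Both groups received 20 µM cisplatin, a DNA-crosslinking drug that injures the kidney tubule, and no library without cisplatin was analysed here, so the comparison is of the knockdown within treated cells. Nothing in the labels tells whether the 4 libraries within each group were grown separately, and each group may be a single line. All p-values thus rest on a spread among libraries that may be technical.

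The basement membrane is the thin sheet of matrix on which the tubule epithelium rests. Laminins, cross-shaped trimers of an alpha, a beta and a gamma chain, polymerise at the cell surface, and collagen IV, a triple helix that in most tissues joins alpha1 and alpha2 chains, forms the covalently crosslinked network that gives the sheet its strength. Nidogens and the heparan sulfate proteoglycan perlecan bridge the networks. In the kidney, laminins with the alpha5 chain and collagen IV underlie tubules and glomeruli, and collagen IV accumulates in fibrosis.

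Libraries held 12746051 to 14280962 expected counts in the knockdown, against 11560977 to 16059158 in the control. Rap1gds1, the targeted gene, was at 2.36 to 2.80 CPM in knockdown libraries and at 15.5 to 17.0 CPM in control libraries, so every library matched its label. Knockdown replicate 4 stood apart on the first principal component of log2 CPM, with a score of 20.9, where its fellow knockdown libraries scored 8.86 to 9.58 and the controls -16.5 to -8.86. The labelled epithelial identity was only partly borne out by its defining markers: the epithelial cadherin Cdh1 had 13 counts over all 8 libraries, and the keratins Krt8 and Krt18 averaged 2.00 and 1.02 CPM in the knockdown and 2.75 and 1.62 CPM in the control. Krt19 was higher than these, at 9.93 CPM in the knockdown and 10.08 CPM in the control, and the epithelial adhesion molecule Epcam was at 2.37 CPM in the knockdown and 1.91 CPM in the control. The kidney transcription factor Pax8 was present at 9.33 and 8.97 CPM, and the water channel Aqp1 at 127 and 155 CPM, in knockdown and control libraries.

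The collagen IV pair is shown first by its sequence, because the 2 genes lie head to head on chromosome 8 of GRCm38.p6 and are transcribed in opposite directions from a common promoter region. The gene table places Col4a1 at chr8:11198423-11312889 and Col4a2 at chr8:11312805-11449287, an overlap of 85 bases at their 5′ ends. Reads from those 85 bases cannot be assigned between the genes without strand information, and the strand setting of the counting was not stated. The RefSeq promoter windows, each running from 250 bases before to 50 bases after the annotated start, were chr8:11312777-11313076 on the minus strand for Col4a1 and chr8:11312555-11312854 on the plus strand for Col4a2. They are printed 5′ to 3′, each on its own strand, with the 78 bases that both windows contain in capitals.
Col4a1 promoter: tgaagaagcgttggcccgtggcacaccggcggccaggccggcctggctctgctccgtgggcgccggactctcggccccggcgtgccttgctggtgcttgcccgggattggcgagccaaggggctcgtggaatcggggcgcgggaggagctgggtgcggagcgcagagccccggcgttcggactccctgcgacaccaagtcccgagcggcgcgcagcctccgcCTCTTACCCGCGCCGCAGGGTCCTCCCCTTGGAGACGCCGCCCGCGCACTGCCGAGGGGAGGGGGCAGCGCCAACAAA
Col4a2 promoter: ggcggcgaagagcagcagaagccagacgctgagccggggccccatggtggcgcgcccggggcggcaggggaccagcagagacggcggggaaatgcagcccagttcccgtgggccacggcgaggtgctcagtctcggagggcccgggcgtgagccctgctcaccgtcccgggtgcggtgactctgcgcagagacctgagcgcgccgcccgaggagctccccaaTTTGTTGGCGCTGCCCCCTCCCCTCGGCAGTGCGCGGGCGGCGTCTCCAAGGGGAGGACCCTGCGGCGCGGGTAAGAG
The windows were built on starts at 11312826 for Col4a1 and 11312805 for Col4a2, 21 bases apart; the Col4a1 start used lies inside the gene span, not at its 5′ end. The windows were 74.0% and 73.7% G or C. Of 5 short motifs searched on both strands, GGGCGG, the core recognised by Sp factors, occurred 1 time in the Col4a1 window and 3 times in the Col4a2 window, and the shared stretch held 1 match, counted in both. It occurs in 35.7% of all 32851 promoter windows of this length. CCAAT, the core recognised by NF-Y, occurred 1 time in each window; the Col4a1 match lay outside the shared stretch and the Col4a2 match ran across its edge. It occurs in 37.4% of all windows. The TATA box motif, TATAAA, occurred in neither window and is present in 13.6% of all windows. The AP-1 core, TGANTCA, occurred in neither and is present in 7.8% of all windows. The TEAD core, GGAATG, occurred in neither and is present in 14.7% of all windows. Promoter windows were matched for 7 of the 10 members; GGGCGG was present in 6 of the 7 and CCAAT in 4. These matches describe the letters only. The other members lie apart in GRCm38.p6: Lama1 at chr17:67697127-67822645, Lama5 at chr2:180176373-180225904, Lamb1 at chr12:31265146-31329644, Lamb2 at chr9:108479847-108490530, Lamc1 at chr1:153218922-153332786, Nid1 at chr13:13437602-13512275, Nid2 at chr14:19751257-19811787 and Hspg2 at chr4:137468751-137570630. Nid2 shares 386 bases with its neighbour Rtraf, where reads cannot be assigned without strand information. Rtraf was not found by symbol among the counted genes. Lamc1 overlaps the pseudogene Gm8818 by 1336 bases and Lama5 the long noncoding RNA Gm52542 by 1286 bases. Long noncoding RNAs also overlap Col4a1, by up to 24712 bases, and Col4a2, by 18344 bases. These neighbours, too, were not among the counted genes.

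Both collagen IV genes rose in the knockdown, by about the same proportion. Col4a1 was at 246, 261, 256 and 304 CPM in knockdown replicates 1 to 4, against 176, 175, 193 and 184 CPM in control replicates 1 to 4. Every knockdown library lay above every control library, with knockdown replicate 4 the highest. This is a 1.46-fold level (95% interval 1.33 to 1.61), or a log2 fold change of 0.55 (SE 0.06, edgeR quasi-likelihood adjusted p = 6.92e-05; all log2 fold changes are knockdown minus control). Col4a2, which supplies the alpha2 chain, was at 145, 151, 149.8 and 182 CPM in knockdown replicates 1 to 4, against 103, 97.5, 106 and 112 CPM in control replicates 1 to 4. The groups again did not overlap, and knockdown replicate 4 lay well above the other knockdown libraries. The level was 1.503-fold (95% interval 1.36 to 1.66; log2 fold change 0.59, SE 0.07, edgeR adjusted p = 3.96e-05). Without knockdown replicate 4 the log2 fold changes were 0.48 and 0.51, and both calls stood. In bulk RNA, more RNA per cell and more cells carrying it cannot be told apart, here and in every result that follows. The ratio of Col4a2 to Col4a1 FPKM, the authors' value per transcript length, was 0.593 to 0.615 in knockdown libraries and 0.568 to 0.623 in control libraries. The ranges overlapped, and the log2 ratio differed by 0.04 between the groups, with single knockdown and control libraries differing by between -0.07 and 0.11 (two-sided exact permutation p = 0.314, n = 4 each, adjusted over 3 ratios p = 0.471). No change in the proportion of the 2 chains was detectable at this number of libraries.

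**Figure D1:**
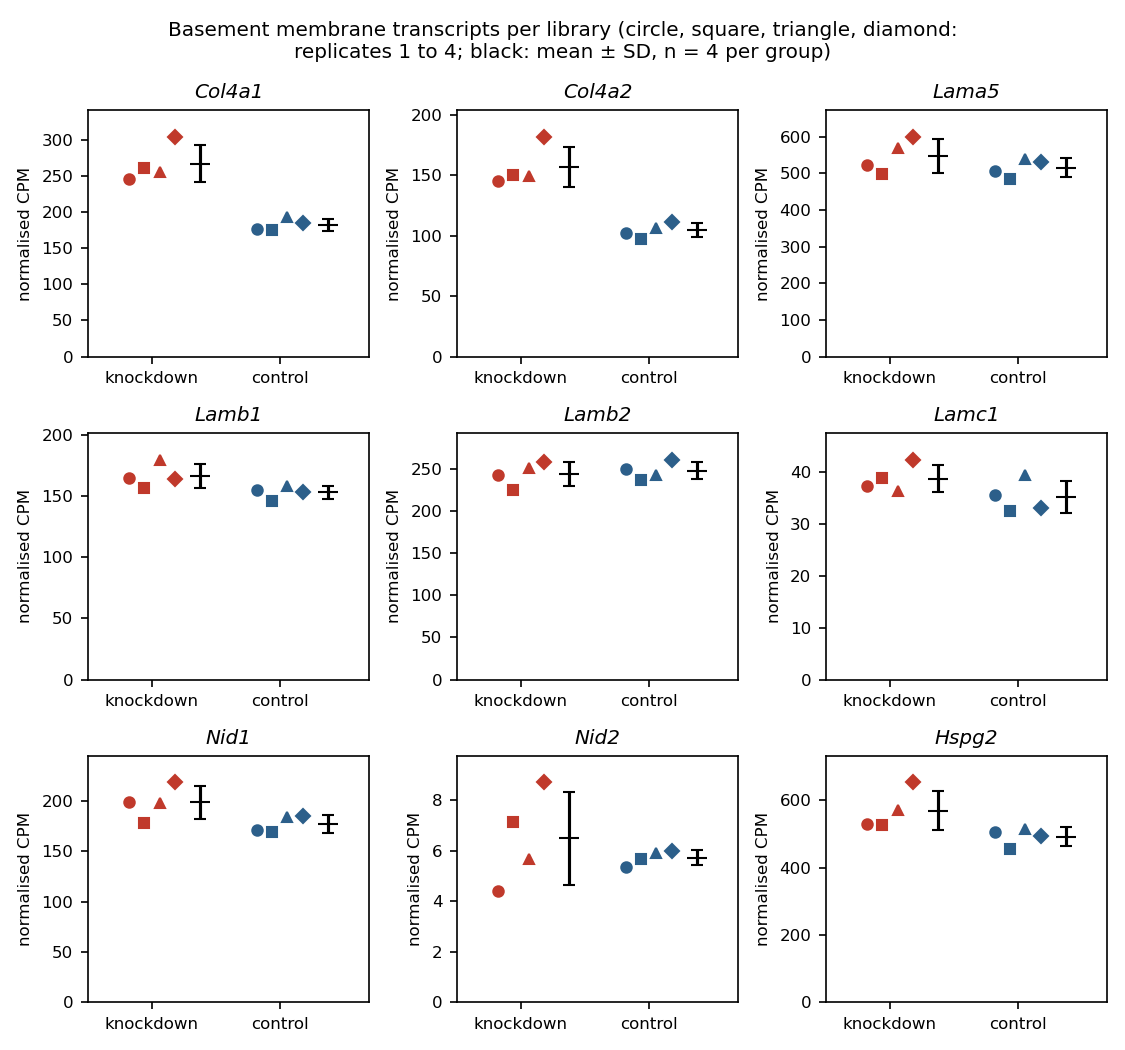
Normalised CPM (linear axis from 0) of the 9 measured basement membrane genes in each of the 4 knockdown (red) and 4 control (blue) libraries, with mean ± SD in black. Col4a1 and Col4a2 separate completely, 246 to 304 against 175 to 193 CPM for Col4a1, while the laminin panels overlap and knockdown replicate 4 (diamond) is the highest knockdown library in every panel except Lamb1.

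Counted together, 4 of the 9 tested members rose and none fell at an adjusted p under 0.05. Of all tested genes 20.2% were called, 11.1% higher and 9.15% lower. The members were chosen with earlier results of these data known, so this is not an unbiased comparison. DESeq2 called 0 falls among the members too, and 0 of the 9 had an unadjusted p under 0.05 in the downward direction. The count of rises was 2, Col4a1 and Col4a2 alone, when counts were scaled by library total or when the authors' FPKM were used. These scalings also moved the balance over all genes: 1285 of 2344 called genes were higher with TMM factors, 766 of 2717 with library totals alone, and 598 of 2106 on log2(FPKM + 0.5). The median log2 fold change of the 9 members was 0.16, against 0.00 over all tested genes. The groups did not overlap, in the upward direction, for 3 of the 9, Col4a1, Col4a2 and Hspg2, where 11.5% of all tested genes separated that way; none separated downward, where 9.61% of all tested genes did.

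**Figure D2:**
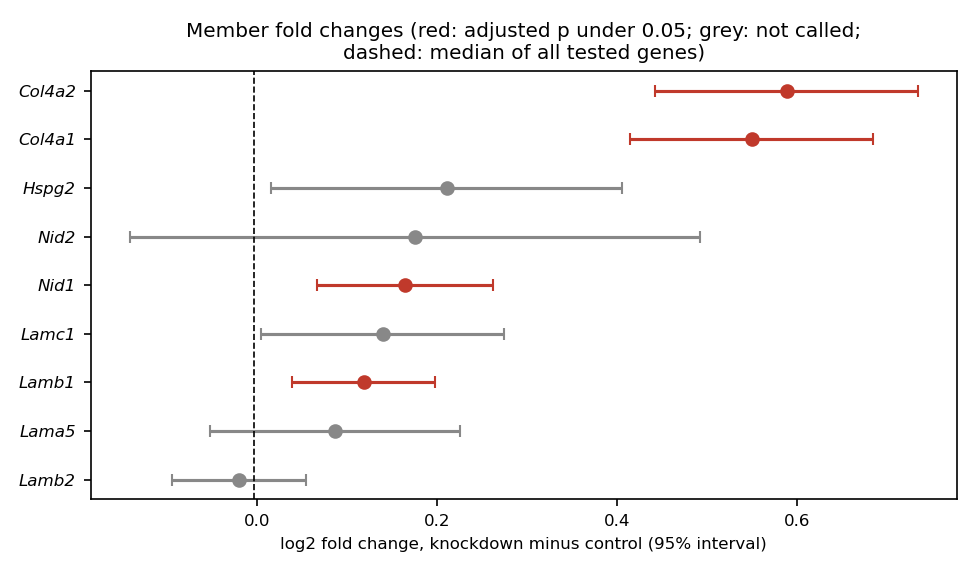
Log2 fold change, knockdown minus control, of the 9 tested members with 95% intervals from the edgeR fit; red marks the 4 called at an adjusted p under 0.05 and the dashed line is the median of all tested genes. The collagen IV genes at 0.55 and 0.59 stand to the right of the others, whose estimates run between -0.02 and 0.21.

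Among the laminin genes the changes were small. Lama1, encoding the alpha chain of early and proximal tubular basement membranes, had 0 counts in all 8 libraries, which allows at most 0.214 to 0.240 CPM in knockdown libraries and 0.181 to 0.257 CPM in control libraries (3 counts per library, counting error only). Lama5, encoding the alpha5 chain, was at 522, 499.7, 569 and 601 CPM in knockdown replicates 1 to 4, against 508, 484, 540.2 and 533 CPM in control replicates 1 to 4. The groups overlapped, and the 1.06-fold level (95% interval 0.964 to 1.17) missed the threshold (edgeR adjusted p = 0.383; log2 fold change 0.09, SE 0.06). After a correction for transcript length the estimate was -0.02, and without knockdown replicate 4 it was 0.04, neither called. Lama5 was called higher without knockdown replicate 2 (0.13, adjusted p = 0.0354) and with no filter on low counts (0.09, adjusted p = 0.0418).

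Lamb1, encoding the beta1 chain, was at 164, 157, 179.7 and 164 CPM in knockdown replicates 1 to 4, against 155, 146, 158 and 153 CPM in control replicates 1 to 4. It rose by 0.12 on the log2 scale (SE 0.04, edgeR adjusted p = 0.0272), although knockdown replicate 2 lay below control replicate 3. The call was lost with library-total scaling, on FPKM, after the length correction, and without knockdown replicate 3 (adjusted p = 0.179), control replicate 2 (adjusted p = 0.119) or control replicate 4 (adjusted p = 0.0533). Lamb2, encoding the beta2 chain that predominates in the mature glomerulus, was at 243, 225, 251 and 258 CPM in knockdown replicates 1 to 4, against 249, 237, 243 and 261 CPM in control replicates 1 to 4. The groups lay on top of each other (edgeR adjusted p = 0.752, log2 fold change -0.02, SE 0.04, 95% interval -0.10 to 0.05). The FPKM ratio of Lamb2 to Lamb1 was 1.41 to 1.60 in knockdown libraries and 1.55 to 1.73 in control libraries. The mean log2 ratio was 0.14 lower in the knockdown, a difference that did not pass (two-sided exact permutation p = 0.0571, n = 4 each, adjusted over 3 ratios p = 0.171; the smallest p that 70 splits allow is 0.0286).

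Lamc1, encoding the gamma1 chain shared by most laminins, was at 37.3, 38.9, 36.2 and 42.3 CPM in knockdown replicates 1 to 4, against 35.6, 32.4, 39.3 and 33.1 CPM in control replicates 1 to 4. Control replicate 3 lay above 3 of the 4 knockdown libraries. The level was 1.10-fold (95% interval 1.00 to 1.21; edgeR adjusted p = 0.144, log2 fold change 0.14, SE 0.07), and the call was reached only without control replicate 3 (adjusted p = 0.0447) among the 19 alternatives tried.

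Of the linker proteins, nidogen-1 transcripts rose slightly. Nid1 was at 199, 178, 198 and 218 CPM in knockdown replicates 1 to 4, against 171, 169, 184 and 185 CPM in control replicates 1 to 4. Knockdown replicate 2 fell within the control range and the other knockdown libraries above it (edgeR adjusted p = 0.0153, log2 fold change 0.16, SE 0.05). Without control replicate 1 the adjusted p was 0.0604, and the call was also lost with library-total scaling and on FPKM. Its counts are not all whole, so reads may be shared with other loci and the value is less certain. Nid2, encoding the second nidogen, was low, at 4.42, 7.15, 5.69 and 8.71 CPM in knockdown replicates 1 to 4, against 5.35, 5.67, 5.93 and 5.99 CPM in control replicates 1 to 4. The knockdown libraries fell on both sides of the control libraries (95% interval of the fold 0.906 to 1.41, edgeR adjusted p = 0.482), and the Nid2 counts, too, are not all whole. The FPKM ratio of Nid2 to Nid1 was 0.0306 to 0.0528 in knockdown libraries and 0.0423 to 0.0450 in control libraries (two-sided exact permutation p = 1, n = 4 each).

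Hspg2, encoding perlecan, was at 529, 525, 569.7 and 652 CPM in knockdown replicates 1 to 4, against 505, 453, 516 and 494 CPM in control replicates 1 to 4. The lowest knockdown library lay just above the highest control library. The level was 1.16-fold (95% interval 1.01 to 1.32), and the log2 fold change of 0.21 (SE 0.08) did not pass (edgeR adjusted p = 0.131). Without knockdown replicate 4 the estimate was smaller, 0.14, and did pass (adjusted p = 0.00811). Limma voom called it as well (adjusted p = 0.00212). Hspg2 is the longest transcript of the members, at 14.2 kb by the length implied by counts and FPKM, and the length correction lowered its estimate to 0.07.

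Levels can be compared between genes only per length, on the authors' FPKM. In the knockdown the order was Lama5 (47.1 ± 3.65 FPKM), Lamb2 (42.5 ± 2.26), Col4a1 (39.5 ± 3.64), Hspg2 (39.2 ± 3.85), Nid1 (32.1 ± 2.46), Lamb1 (28.5 ± 1.68), Col4a2 (23.8 ± 2.44), Lamc1 (4.97 ± 0.331) and Nid2 (1.303 ± 0.368) (SD, n = 4). In the control it was Lama5 (46.1 ± 1.87 FPKM), Lamb2 (44.8 ± 1.57), Hspg2 (35.2 ± 1.67), Nid1 (29.8 ± 1.22), Col4a1 (28.0 ± 1.05), Lamb1 (27.3 ± 0.733), Col4a2 (16.5 ± 0.803), Lamc1 (4.69 ± 0.392) and Nid2 (1.20 ± 0.0544) (SD, n = 4). Col4a1 thus stood above Hspg2 and Nid1 in the knockdown order and below both in the control order. The ranges of mean ± SD overlapped between neighbours from Lama5 to Hspg2 and between Nid1 and Lamb1 in the knockdown. In the control they overlapped between Lama5 and Lamb2, between Nid1 and Col4a1, and between Col4a1 and Lamb1. The collagen IV alpha1 and alpha2 transcripts made up 50.5% and 30.5% of the summed FPKM of the 6 collagen IV genes in the knockdown, and 51.0% and 30.0% in the control. Lama5 was 99.3% of the summed FPKM of the 5 laminin alpha genes in the knockdown and 99.4% in the control. The 3 laminin beta genes summed to 71.7 FPKM in the knockdown and 73.0 FPKM in the control. Lamc1 transcripts were thus far below those of the alpha and beta chains with which the gamma1 chain assembles, in both groups.

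**Figure D3:**
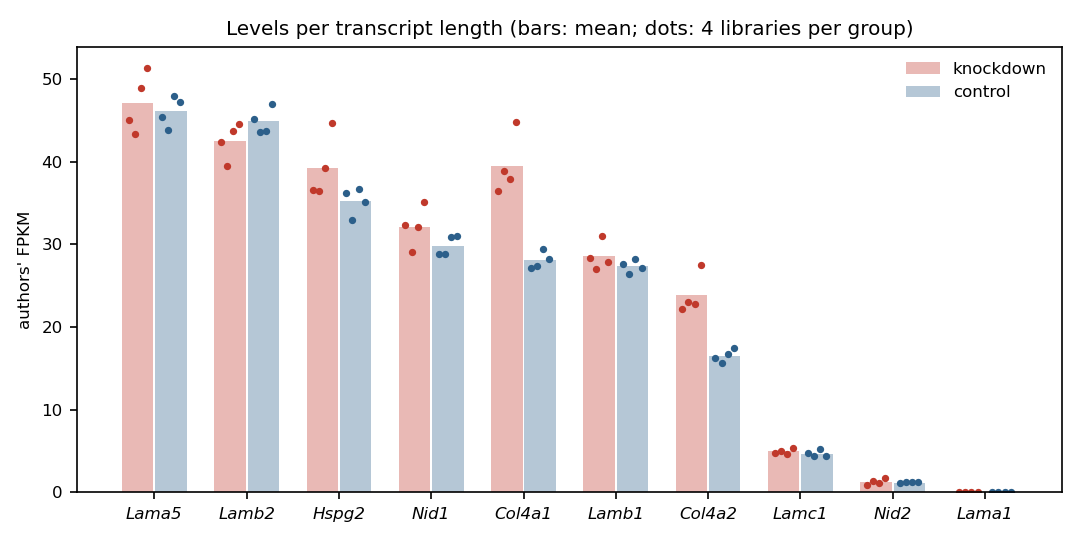
The authors' FPKM (linear axis from 0) of the 10 members, ordered by control level, with bars for the mean of 4 libraries and dots for single libraries, knockdown in red and control in blue. Lama5 and Lamb2 lead at 42.5 to 47.1 FPKM in both groups, Lamc1 is near 5 FPKM and Lama1 is listed at 0.

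Whether collagen IV moved relative to the rest of the sheet was tested with FPKM ratios within each library, which do not depend on how libraries are scaled; this test was chosen after the values were seen. Each of the 7 other measured members, from laminin chains to perlecan, fell relative to Col4a1. Lama5 was at 1.23, 1.11, 1.29 and 1.15 times the Col4a1 FPKM in knockdown replicates 1 to 4, against 1.67, 1.60, 1.63 and 1.67 times in control replicates 1 to 4. The log2 ratio was lower by 0.46 (log2 difference -0.46). Lamb2 had the largest difference of group means, at 0.997 to 1.16 times the Col4a1 FPKM in knockdown libraries against 1.48 to 1.66 times in control libraries (log2 difference -0.57). Hspg2 had the smallest, at 0.937 to 1.04 times in knockdown libraries against 1.20 to 1.33 times in control libraries (log2 difference -0.34). The groups came closest for Nid2, at 0.0271 to 0.0410 times in knockdown libraries against 0.0447 to 0.0474 times in control libraries. The groups did not overlap for any of the 7 ratios, each of which reached the smallest two-sided exact permutation p of 0.0286 (n = 4 each, adjusted over the 7 ratios p = 0.0286). These 7 tests share the same Col4a1 values and are not independent of each other. Col4a1 became the reference after its own groups were seen not to overlap. The p-values thus largely restate that separation and are no separate support for it.

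**Figure D4:**
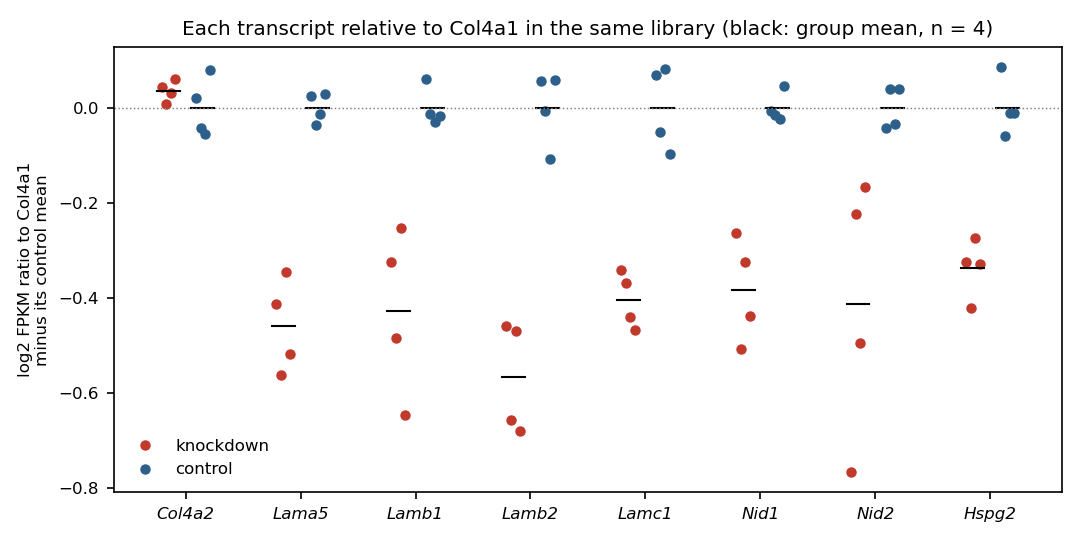
Log2 FPKM ratio of each transcript to Col4a1 in the same library, minus the control mean of that ratio (vertical axis), for 4 knockdown (red) and 4 control (blue) libraries, with group means as black lines. Col4a2 stays level with Col4a1, at a difference of 0.04, while the other 7 transcripts lie lower in the knockdown, by 0.34 to 0.57.

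The genes around the members were described with 4 lists: the remaining collagen IV and laminin chains, other basement membrane components, enzymes and chaperones that process collagen IV, and receptors for the basement membrane. Of 69 listed genes 52 were tested, of which 12 rose and 2 fell. That is 26.9% called, where 20.2% of all tested genes were called, 11.1% higher and 9.15% lower. The lists, too, were chosen with earlier results of these data known, so their shares are not an unbiased comparison. No difference between lists was tested. The 52 genes had a median log2 fold change of 0.04 against 0.00 over all tested genes. Scaling by library total gave 9 rises and 5 falls, where over all tested genes 2717 were called, 766 of them higher. Without knockdown replicate 4, 11 rose and 1 fell, where over all tested genes 1835 were called, 1033 of them higher.

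Among the other chains 1 of 5 tested genes rose and none fell, against 11.1% and 9.15% of all tested genes (median log2 fold change 0.20). This was Col4a5, encoding the X-linked alpha5 chain of collagen IV, at 82.1, 81.3, 76.7 and 103 CPM in knockdown replicates 1 to 4, against 56.5, 47.5, 55.5 and 60.7 CPM in control replicates 1 to 4. All knockdown libraries lay above all control libraries (edgeR adjusted p = 0.00349, log2 fold change 0.64, SE 0.11). Its neighbour Col4a6, encoding the alpha6 chain, was at 11.5 ± 0.483 CPM in the knockdown and 10.1 ± 2.06 CPM in the control (SD, n = 4 each) and was not called (edgeR adjusted p = 0.269, log2 fold change 0.20, SE 0.12); the difference between the neighbours was not tested. The epithelial laminin chains Lama3 and Lamb3 were low, averaging 1.57 and 2.73 CPM in the knockdown and 1.33 and 3.32 CPM in the control, and neither passed. Col4a3, Col4a4, Lama2, Lama4 and Lamc3 were below the count filter.

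Of 14 tested other components 5 rose and none fell, against 11.1% and 9.15% of all tested genes (median log2 fold change 0.07). The heparan sulfate proteoglycan agrin, Agrn, was at 199.8 ± 12.7 CPM in the knockdown and 169.9 ± 7.26 CPM in the control (SD, n = 4 each; edgeR adjusted p = 2.09e-05, log2 fold change 0.24, SE 0.04). Smoc2, a calcium-binding matricellular protein, rose by 0.44 (SE 0.13), the fibulin Efemp1 by 0.26 (SE 0.06) and Sparc, a collagen-binding glycoprotein, by 0.21 (SE 0.06), all on the log2 scale. Sparc was abundant, at 2535 ± 178 CPM in the knockdown and 2185 ± 126 CPM in the control (SD, n = 4 each), and its call was lost in 6 of 19 alternatives, among them the leaving out of knockdown replicate 3, control replicate 1 or control replicate 4. Tinagl1, a tubulointerstitial nephritis antigen-like protein, rose by 0.09 and lost its call in 11 of 19 alternatives.

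Collagen IV is folded and modified in the endoplasmic reticulum before secretion. Of 16 tested genes of that step and of crosslinking, 4 rose and none fell, against 11.1% and 9.15% of all tested genes (median log2 fold change 0.10). The collagen chaperone Hsp47, Serpinh1, was at 1556 ± 54.4 CPM in the knockdown and 1382 ± 37.5 CPM in the control (SD, n = 4 each; edgeR adjusted p = 9.62e-06, log2 fold change 0.17, SE 0.03). The prolyl isomerase Ppib rose by 0.25 (SE 0.03), the lysyl hydroxylase and glycosyltransferase Plod3 by 0.11 (SE 0.03) and the lysyl oxidase Loxl2, which crosslinks collagen IV, by 0.28 (SE 0.05), all on the log2 scale. Counts of Ppib, Plod3 and Loxl2 are not all whole, so these 3 are less certain, and Plod3 lost its call with library-total scaling and on FPKM. The prolyl hydroxylase subunits P4ha1, P4ha2 and P4hb did not pass.

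Among 17 tested receptor genes 2 rose and 2 fell, a share near that of all tested genes, of which 11.1% rose and 9.15% fell (median log2 fold change 0.00). The collagen receptor kinase Ddr2 rose by 0.34 (SE 0.05) and the heparan sulfate proteoglycan syndecan-2, Sdc2, by 0.46 (SE 0.05). The glypican Gpc1 fell by 0.18 (SE 0.04). The laminin-binding integrin subunit Itga6 fell by 0.40 (SE 0.13), at a low level, 7.78 ± 0.747 CPM in the knockdown and 10.2 ± 2.27 CPM in the control (SD, n = 4 each), and lost its call in 7 of 19 alternatives, among them without knockdown replicate 2, 3 or 4 or control replicate 2. The common beta1 integrin subunit Itgb1, at 919.8 and 893 CPM in the knockdown and the control, was not called.

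**Figure D5:**
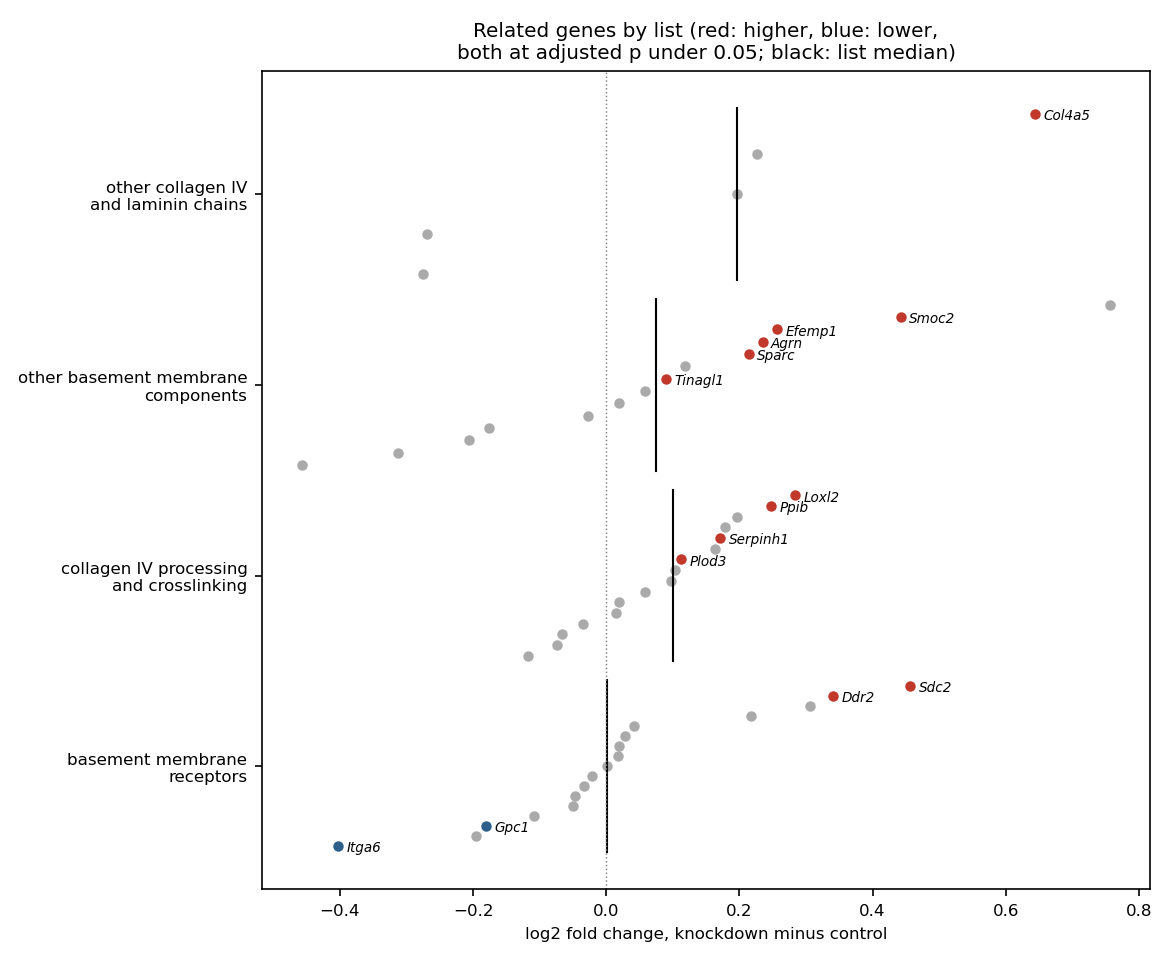
Log2 fold change, knockdown minus control, of the 52 tested related genes in 4 lists (rows), with genes called higher in red, genes called lower in blue, all others in grey and each list's median as a black line. In all, 12 genes are red and 2 are blue, 26.9% of the 52, where 20.2% of all tested genes were called.

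Markers of several cell types, including the labelled kidney tubule epithelium, were read beside these results. All 4 tested of 6 fibroblast and pericyte markers rose, Col1a1, Col3a1, Dcn and Pdgfrb, by 0.23, 0.54, 0.49 and 0.36 on the log2 scale, where 11.1% of all tested genes rose; their list summed to 356 to 407 CPM in knockdown libraries and 297 to 323 CPM in control libraries, most of it Col1a1. The other 2, Pdgfra and Lum, had 24 and 7 counts over all 8 libraries. The 7 endothelial markers summed to 15.9 to 20.3 CPM in knockdown libraries and 13.2 to 16.04 CPM in control libraries; Flt1 rose by 0.60, Egfl7 was at 6.14 CPM in the knockdown and 6.06 CPM in the control (log2 fold change 0.01, not called), and Pecam1, Cdh5, Kdr, Emcn and Tek had at most 27 counts each over all libraries. The 5 podocyte markers summed to 10.4 to 12.4 CPM in knockdown libraries and 10.7 to 13.7 CPM in control libraries, with Nphs1 at 7.14 counts in all. The 8 kidney tubule markers summed to 136 to 143 CPM in knockdown libraries and 159.8 to 174 CPM in control libraries, most of it Aqp1, which fell by 0.29. The 6 leukocyte markers summed to 111 to 122 CPM in knockdown libraries and 129.6 to 138 CPM in control libraries, nearly all of it Cd68 and Cd14; Cd14 fell by 0.36, and Adgre1 and Cd3e had no count. The 6 epithelial markers summed to 14.5 to 17.3 CPM in knockdown libraries and 15.998 to 18.03 CPM in control libraries. The part of these shifts in the rise of collagen IV was not tested.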

How the data were processed

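Expected counts and FPKM per gene and library were used as deposited. Per the submitters' processing notes, the tools were StringTie 1.3.1, HISAT2 2.4, Bowtie2 2.2.8, fastp 0.18.0, edgeR, RSEM and DESeq2, whose roles are unstated, and the build was GRCm38.p6. Per the labels' protocols, mRNA was enriched on oligo(dT) beads. Neither strand setting nor annotation release was stated. Of the deposited expected counts, 6.52% were not whole (tolerance 1e-09).

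Counts were rounded and tested over all 11576 genes passing the default filter, with TMM factors, the robust quasi-likelihood fit and two-sided F-test of edgeR 4.0.16 in R 4.3.3, Benjamini-Hochberg adjustment and a threshold of 0.05. CPM were counts scaled by TMM-adjusted library size. DESeq2 1.42.0 and limma 3.58.1 gave alternatives. Ratios used log2 of the authors' FPKM plus 0.1 and exact permutation over libraries. Lama5 over Lama1 was planned but not tested, since Lama1 had no counts. In simulated data of the knockdown against control comparison (11465 genes), 23 of 50 genes changed by 0.3 and 40 of 49 changed by 0.6 on the log2 scale were recovered, with 6 calls among 11267 unchanged genes. The biological coefficient of variation was 4.29%, and replicates differed by more than sampling noise (chi-square per degree of freedom 1.94 to 3.98). Sequences and coordinates came from RefSeq tables of GRCm38.p6; gene identifiers of all 10 members matched. All members were named; of the 4 related lists, genes past the threshold were named, and other list genes named were chosen after their values were seen. The members and lists were chosen with earlier results of these data known. The 95% intervals came from the edgeR fit and include the estimated spread among libraries. The floor of 3 counts covers counting error only.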

Additional observations from a re-analysis of the deposited data

Results flagged for a closer look

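In 18 groups of 4 libraries (9 members, 2 groups each), 1 held a library far from the other 3, about what chance gives at a rate of 1 in 20. Col4a2 in knockdown replicate 4 was at 182 CPM, against 145 to 151 CPM in the other 3 knockdown libraries, and the control libraries lay at 97.5 to 112 CPM. Without this library Col4a2 was still higher in the knockdown (log2 fold change 0.51).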

How the results depend on the processing

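Under 19 alternatives, Col4a1 stayed between 0.48 and 0.59 and Col4a2 between 0.51 and 0.62 on the log2 scale, and both were called in each. The members called higher numbered 2 with library totals, at a threshold of 0.01 and on log2(FPKM + 0.5) or log2(FPKM + 0.1), and 3 to 5 with each library left out; the members called lower numbered 0 in each. All genes called numbered 1405 at a threshold of 0.01 (825 higher), 2717 with library totals (766 higher) and 2375 after the length correction (1272 higher). On log2(FPKM + 0.5) 2106 were called (598 higher). With a library left out, all genes called numbered 1835 to 2184, against 2344 in the main fit. Related genes called lower numbered 5 with library totals, 1 at a threshold of 0.01, 4 on both FPKM scales and after the length correction, and 1 to 3 with a library left out, where those called higher numbered 10 to 13. Lama5 changed sign after the length correction (-0.0237), and Lamb2 without knockdown replicate 2 (0.0167) or control replicate 4 (0.00481), none of them called; with single libraries left out Lamb2 ranged over -0.0477 to 0.0167. The log2 ratio of Nid2 to Nid1, -0.03, was 0.13 without knockdown replicate 1 and 0.02 without knockdown replicate 3 (range -0.13 to 0.13). Of all called genes, 593 of 2098 were higher on log2(FPKM + 0.1). The cause of these changes was not tested. With a library left out, ratios to Col4a1 could not pass (smallest p 0.0571); their differences ranged over -0.50 to -0.43 for Lama5, -0.49 to -0.36 for Lamb1, -0.60 to -0.53 for Lamb2, -0.44 to -0.38 for Lamc1, -0.42 to -0.34 for Nid1, -0.50 to -0.30 for Nid2 and -0.36 to -0.31 for Hspg2, with 0.02 to 0.06 for Col4a2 and, for Lamb2 over Lamb1, -0.17 to -0.11. Same-numbered libraries deviated with correlations of 0.06, 0.08, -0.04 and 0.06, and 3 of 4 knockdown libraries correlated best with their own number. The labels do not say what a number marks, so the main fit took no pairs, and these values do not settle whether pairs exist. With the replicate block 2660 genes were called (1425 higher), 6 members among them, all higher, and 13 related genes higher and 3 lower. The block lowered the SE of Col4a1 from 0.061 to 0.036 and of Col4a2 from 0.067 to 0.038, while that of Lamc1 went from 0.067 to 0.065. Lama5 (adjusted p = 0.0128) and Hspg2 (adjusted p = 0.0268) were the members added by the block. Lama1 had 0 counts, and Nid2 had at most 109 counts in a library.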
